A study of Mus musculus with 13 samples.

Results

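Invariant natural killer T (iNKT) cells are T cells that carry a semi-invariant T cell receptor and recognise lipids presented by CD1d. The iNKT17 subset is known for IL-17 production. In BALB/c mice these cells develop in the thymus, and a part of them stays there. The comparison described here set iNKT17 cells from the thymus of aged mice (25 weeks) against the same sorted subset from young adult mice (6 weeks). A gene was taken as measured where 2 or more of the 4 iNKT17 libraries reached a normalized count of 10, which held for 10504 of the 24421 genes in the deposited table, called members below. Of these, 9694 reached 10 in all 4 libraries, 75 reached it only in aged and 190 only in young libraries. At the edge of the rule, Klra1 entered with 0 and 0 in aged and 24.6 and 10.7 in young libraries, and Prf1 stayed out with 7.47 and 6.80 in aged and 9.99 and 11.4 in young libraries.

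All mice were female BALB/c animals without a genetic change or treatment. Aged iNKT17 libraries came from 500000 and 499000 sorted cells of aged thymi and young libraries from 217000 and 157000 cells of young adult thymi, and each sort pooled the thymi of several mice, more of them for the aged group. Cells were sorted as B220-, CD3+, CD1d tetramer+, CD122- and CD4-, so that Cd4 and Il2rb (CD122) were used by the gate. A library is thus a pool of animals, the 2 libraries of an age are its only replicates, and p-values measure the spread between such pools. Age, the number of pooled mice and the number of sorted cells changed together and cannot be told apart.

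The 2 aged libraries held 7455812 and 6415325 reads counted in genes and the 2 young libraries 7752231 and 8105972. A normalized count is a read number divided by a size factor for the library, and in these 4 libraries 1 read stood for a value of 0.763 to 0.971. A gene without a read could thus still have had a level of up to 2.29 to 2.91 (3 reads), by counting error alone. Replicates lay within 2-fold of each other for 92.5% of members in aged and 96.5% in young cells. The iNKT17 label was borne out by its markers, since Il23r, a receptor for IL-23, had 4889 and 5159 normalized counts in aged and 4004 and 3574 in young libraries, against 0 to 607 in the 8 libraries of the other subsets. Tbx21, which defines iNKT1 cells, stayed between 14.5 and 19.4 in the 4 libraries and reached up to 2168 in the others. Young replicate 2 stood apart by the epithelial keratin Krt8, with 54.1 normalized counts against 0.768 in young replicate 1 and 0 in both aged libraries, and it was the only one of the 4 with the Y-linked gene Eif2s3y (6.10). The 12 epithelial markers summed to 47.3 and 38.8 in aged and 58.4 and 156 in young libraries. Their part in the results was not tested.

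Of the members, 57 were called higher and 116 lower in aged than in young iNKT17 cells, at an adjusted p under 0.05 by limma on log2(normalized count + 1) over 12 libraries of the 3 subsets. That is 0.543% and 1.10% of the members, against 0.494% and 1.06% of the 11530 genes tested over all subsets. The median log2 fold change was 1.32 for the higher and −2.57 for the lower genes, and 13 higher and 74 lower genes changed by at least 2 on the log2 scale. The genes that fell had lower levels, with a median of 26.1 normalized counts in aged and 147 in young cells, than the genes that rose, with 615 in aged and 224 in young cells. Of the 116 lower genes 42 reached 10 only in young libraries, and of the 57 higher genes 4 did so only in aged ones, so these passed the filter through the group in which they were high. The median log2 fold change over all members was 0.0045.

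These counts depended strongly on which libraries set the spread. Fitted on the 4 iNKT17 libraries alone, limma called 673 members higher and 399 lower (6.41% and 3.80%), including all 57 of the higher and 105 of the 116 lower genes, so that the majority of calls was then higher in aged cells. The spread between replicates, as a root mean square SD on the log2 scale over the members, was 0.418 in aged and 0.322 in young iNKT17 cells and 0.796 in young iNKT1 cells, which the 12-library fit includes. With 1 of the 4 iNKT17 libraries left out, 5 to 7 genes were called higher and 25 to 75 lower.

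**Figure D1:**
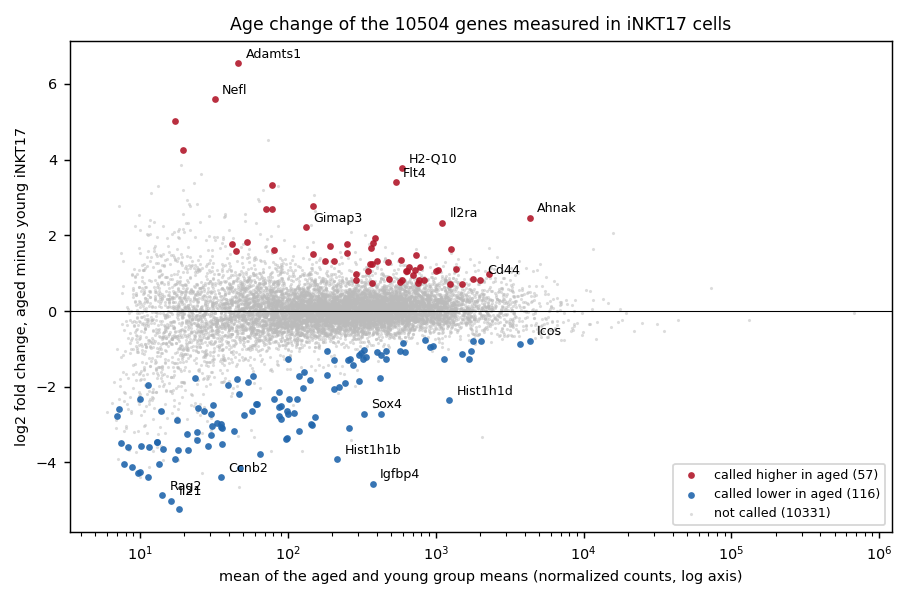
Each point is 1 of the 10504 genes measured in iNKT17 cells, with the mean of the 2 group means in normalized counts on a log axis and the log2 fold change of aged minus young cells on the vertical axis. Of the 57 genes called higher, 55 have an aged mean of at least 50, while many of the 116 genes called lower lie at the low end.

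Il2ra, which encodes the alpha chain (CD25) of the high-affinity IL-2 receptor, had 1842 and 1871 normalized counts in aged libraries, against 346 and 391 in young libraries (log2 fold change 2.33, SE 0.48, adjusted p = 0.036, limma). Both aged values lay above both young ones, and the DNase-treated repeat of aged replicate 2 had 1993. The gene lies on chromosome 2 of mm10, from 11642792 to 11689782. The other chains of this receptor did not pass the test: Il2rb had 1107 and 992 in aged and 1188 and 1179 in young libraries, and Il2rg had 2942 and 3620 in aged and 2632 and 2886 in young libraries. Over the 15 measured genes of the IL-2 receptor and STAT5 list, 1 was called higher and 0 lower, with 3 and 0 at an unadjusted p under 0.05, and the median log2 fold change was 0.24. The share of all members at that unadjusted threshold is not given, so such counts, here and below, have no base rate.

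Flt4 encodes VEGFR3, a receptor for the lymphatic growth factors VEGF-C and VEGF-D. It had 1008 and 954 normalized counts in aged libraries and 88.4 and 94.6 in young libraries (log2 fold change 3.41, SE 0.56, adjusted p = 0.011). Nrp2, a co-receptor of the same family of ligands, moved the other way and was called lower, with 0 and 3.88 in aged and 30.7 and 17.5 in young libraries. Nrp2 had 19.8 in the DNase-treated repeat, and it was no longer called with that library in place of aged replicate 2. Endothelial cells also express Flt4, and the 13 endothelial markers summed to 589 and 659 in aged and 865 and 1071 in young libraries, with Cd34 at 0 in all 4. Of the 13, 2 were members, Eng and Pecam1, and they made up most of the sum. Their part in the level of Flt4 was not tested.

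H2-Q10, a nonclassical MHC class I gene best known from the liver, had 1365 and 844 in aged and 77.6 and 77.0 in young libraries (log2 fold change 3.78, SE 0.80, adjusted p = 0.039). Reads that match several MHC class I copies equally were dropped by the authors, so its level is uncertain. Of the 10 measured genes of the MHC class Ib list it was the only call, though both aged libraries lay above both young ones for 8 of them, against 29.0% of all members. H2-T23 (Qa-1), for example, had 1837 and 1457 in aged and 1076 and 1011 in young libraries.

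Among the cytokine receptors, Il4ra had 495 and 548 normalized counts in aged and 222 and 216 in young libraries (log2 fold change 1.25, SE 0.23, adjusted p = 0.021). It was the only call among the 22 measured receptors of this list, whose median was 0.27. Il7r, the IL-7 receptor alpha chain and the most abundant of them, had 12523 and 13591 in aged and 9287 and 8801 in young libraries and did not pass (adjusted p = 0.27).

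The smallest p among the genes that rose belonged to Gimap3, a GTPase of lymphocyte survival, with 199 and 241 in aged and 44.6 and 48.0 in young libraries (log2 fold change 2.22, SE 0.17, adjusted p = 0.00019). Adamts1, a secreted metalloprotease, had 90.4 and 95.1 in aged libraries, 126 in the DNase-treated repeat and 0 in both young libraries. Set against a floor of 3 reads per library it was at least 40.4-fold higher in aged cells. Nefl, the neurofilament light chain, had 68.9 and 58.3 in aged libraries, against 0.768 and 0 in young libraries, where it rested on 1 read (ratio 167, exact 95% interval 29.5 to 6646). This interval and those of the other ratios cover counting error only, not the spread between libraries, and reads copied by PCR are not independent molecules. Dact2 was the other called gene without a read in young libraries, with 19.1 and 50.5 in aged ones; it is named here for its zeros, after its values were seen.

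Further large rises with clear separation of the groups were those of Ahnak, which encodes a giant scaffold protein (6626 and 7938 in aged, 938 and 1837 in young libraries), and of Fam160a2 (129 and 155 in aged, 9.99 and 17.5 in young libraries). Ust, a uronyl sulfotransferase, had 112 and 162 in aged and 20.7 and 19.1 in young libraries. Iigp1, an interferon-inducible GTPase, had 296 and 219 in aged and 47.6 and 27.5 in young libraries. Qser1, Crim1, Naip2, Dennd5a and Gprasp1 rose by 1.76 to 2.69 on the log2 scale. Naip2, an inflammasome sensor, had 78.8 and 88.4 in aged and 22.3 and 23.6 in young libraries, and its DNase-treated repeat had 30.4, much nearer to the young values. Cd44, a marker of activated and memory T cells, had 2316 and 2770 in aged and 1372 and 1490 in young libraries, and Plcg1, a phospholipase of T cell receptor signalling, 2319 and 2250 in aged and 1355 and 1212 in young libraries. Tpr, a protein of the nuclear pore basket, had 1862 and 1883 in aged and 838 and 902 in young libraries (log2 fold change 1.11, SE 0.14, adjusted p = 0.0032).

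The calls of several of these genes rested on the choice of libraries. Of 28 alternatives, the call was lost in 10 for Il2ra, 12 for H2-Q10, 10 for Ahnak, 4 for Flt4, 13 for Phf1, 11 for Cd44 and 5 for Il4ra, in each case with any 1 of the 4 iNKT17 libraries left out, and it was kept in all 28 for Gimap3, Adamts1, Ust and Fam160a2. The call was also lost in 13 of 28 alternatives for Plcg1, edgeR among them. It was lost in 9 for Crim1, 8 for Iigp1, 7 for Gprasp1, 6 for Naip2 and 4 for Qser1. No alternative turned the direction of a named gene.

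**Figure D2:**
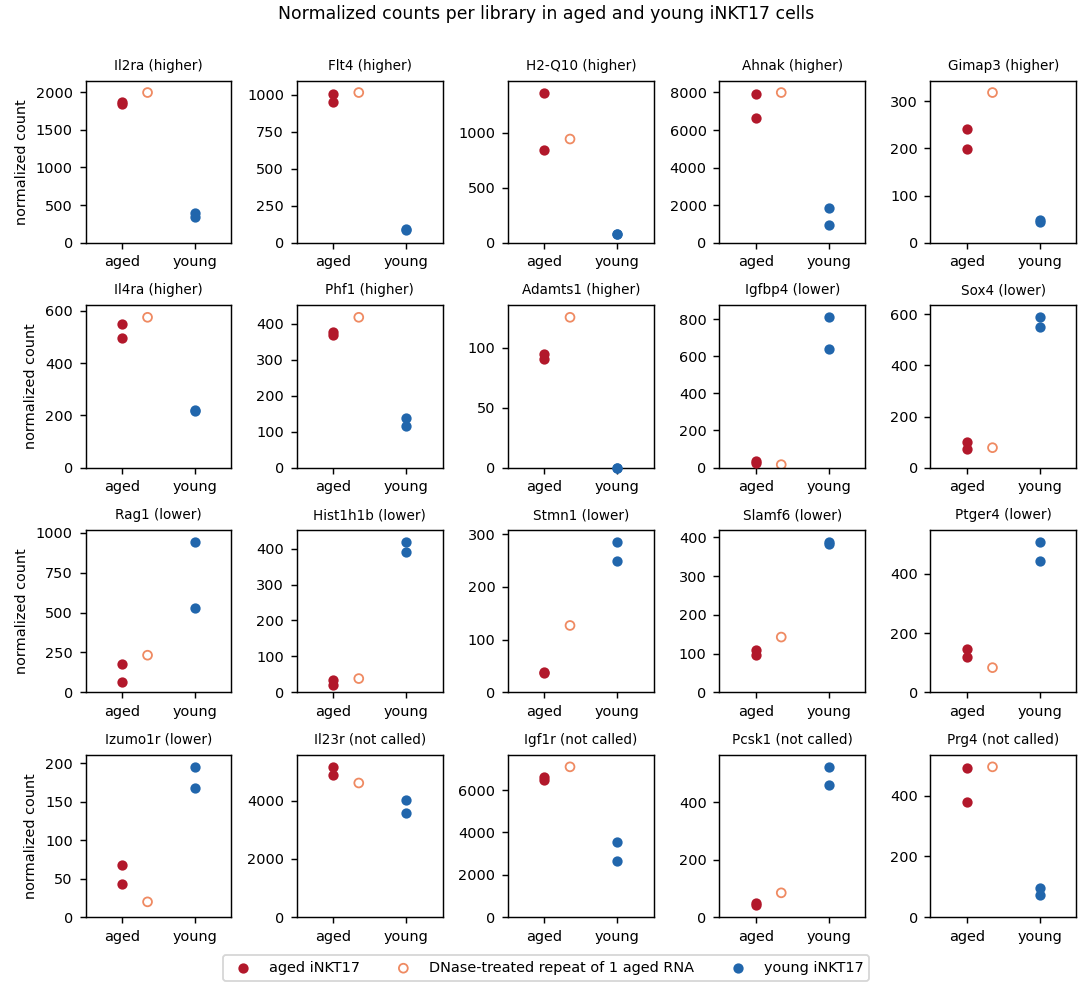
Normalized counts of 20 genes in the 2 aged and the 2 young iNKT17 libraries, with the DNase-treated repeat of aged replicate 2 as an open circle. Aged libraries lie well above young ones for Il2ra (1842 and 1871 against 346 and 391) and well below them for Igfbp4 (25.7 and 34.0 against 810 and 638), while Il23r lies at 4889 and 5159 against 4004 and 3574 and was not called.

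Insulin-like growth factors act through the receptor Igf1r, and IGF-binding proteins hold them in the extracellular space. Igfbp4 had 25.7 and 34.0 normalized counts in aged libraries and 810 and 638 in young libraries (log2 fold change −4.56, SE 0.31, adjusted p = 8.4e-05). This was the smallest p of all members, the repeat had 15.9, and the call was kept in all 28 alternatives. The gene lies on chromosome 11 of mm10, from 99041260 to 99051579. Igf1r had 6483 and 6629 in aged and 2647 and 3552 in young libraries. Its groups did not overlap, but with the spread of all 12 libraries it was not called (log2 fold change 1.10, SE 0.80, adjusted p = 0.60), whereas the fit on the 4 iNKT17 libraries gave an adjusted p of 0.0017. Irs1, an adaptor of insulin and IGF receptors, had 212 and 310 in aged and 24.6 and 65.6 in young libraries (adjusted p = 0.11). For 6 of the 7 measured genes of the IGF list both aged libraries lay above both young ones, against 29.0% of all members. The ligand Igf1 had at most 0.763 and was no member.

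Prg4 (lubricin) and Pcsk1 (a prohormone convertase) likewise separated the ages without being called. Prg4 had 379 and 490 in aged and 73.0 and 94.6 in young libraries (log2 fold change 2.36, SE 0.77, adjusted p = 0.20 by limma and 0.0042 by edgeR). Pcsk1 had 43.1 and 47.6 in aged and 459 and 523 in young libraries (−3.41, SE 0.95, adjusted p = 0.12 by limma and 0.0065 by edgeR).

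The genes that define the subset changed little. None of the 21 measured iNKT17 identity genes was called, and none was at an unadjusted p under 0.05; edgeR called none either. Their median log2 fold change was 0.31, both aged libraries lay above both young ones for 14 of them (29.0% of all members), and for none were they both below (26.7% of all members). Il23r, whose values are given above, had a log2 fold change of 0.41. Sdc1 (CD138) had 4508 and 5057 in aged and 3542 and 3379 in young libraries, and the kinase gene Blk 6623 and 7185 in aged and 6079 and 5063 in young libraries. The farthest from 0 was the transcription factor Sox13, with 2766 and 3074 in aged and 1260 and 1582 in young libraries (log2 fold change 1.05, SE 0.49, adjusted p = 0.38). In the fit on the 4 iNKT17 libraries 4 of the 21 were called higher, Sox13 among them (adjusted p = 0.0016). The signature cytokines Il17a, Il17f and Il22 had at most 4.61 normalized counts in any of the 4 libraries and were not members, so their change could not be measured in these unstimulated cells.

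Some markers of the other iNKT subsets were lower in aged iNKT17 cells. Of 11 measured iNKT2 markers, 4 were called lower and 0 higher, 9 had both aged libraries below both young ones, against 26.7% of all members, and the median log2 fold change was −1.52. Without aged replicate 1 that median was −0.72. Slamf6, a SLAM receptor of developing iNKT cells, had 95.4 and 109 in aged and 388 and 382 in young libraries (log2 fold change −1.91, SE 0.19, adjusted p = 0.00047). Izumo1r (folate receptor 4) had 43.1 and 68.0 in aged and 195 and 168 in young libraries, and the costimulatory receptor Icos 3024 and 3320 in aged and 5118 and 5817 in young libraries. Icos also was lower in both aged libraries, and its call was lost in 11 of 28 alternatives. Il4, the signature cytokine of iNKT2 cells, had 48.9 and 68.0 in aged and 75.3 and 82.4 in young libraries and was not called. Cd4, against which the cells were sorted, had 18.2 and 68.0 in aged and 91.4 and 124 in young libraries, against 553 to 4004 in the other subsets, and did not pass either.

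Of 11 measured iNKT1 markers, 3 were called lower and 0 higher, with a median of −1.04 that ranged from −3.18 to −0.17 over the alternatives. The 3 were the Ly49 receptor genes Klra3, Klra5 and Klra1. They reached 10 only in young libraries, so they passed the filter through the group in which they were high. The call of Klra1 was lost in 9 of 28 alternatives, edgeR among them, and those of Klra3 and Klra5 were kept in all 28. Klra3 had 0 and 0 normalized counts in aged and 28.4 and 11.4 in young libraries and was at least 7.38-fold lower in aged cells. Klra5 was at least 7.24-fold and Klra1 at least 6.53-fold lower by the same floor of 3 reads. These genes are near-identical copies, so reads may be lost or split between them, and in iNKT1 libraries Klra3 had 1785 to 2117 normalized counts. Among further iNKT1 genes, Gzmb (granzyme B) had 3.32 and 0 in aged and 20.7 and 28.2 in young libraries and was not called by limma (adjusted p = 0.057). Tbx21, which is specific to iNKT1 cells, had a log2 fold change of 0.08. For 6 of the 11 both aged libraries lay below both young ones (26.7% of all members), and for 3 they lay above without a call (29.0% of all members). Among these 3 were Klrb1c (NK1.1), with 245 and 264 in aged and 186 and 154 in young libraries, and Stat4, with 100.4 and 135 in aged and 67.6 and 50.3 in young libraries. The third was Klrk1 (NKG2D), with 17.4 and 37.9 in aged and 14.6 and 7.63 in young libraries. These 3 were chosen after their values were seen. In bulk samples fewer cells of a type and less RNA per cell cannot be told apart, here and in all groups below.

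Several genes of immature thymocytes fell. Of 18 measured members of this list, 8 were called lower and 0 higher, 14 were at an unadjusted p under 0.05, all of them lower, and the median log2 fold change was −1.32. That median was −0.87 without aged replicate 1, −2.10 without aged replicate 2 and −2.31 with the DNase-treated repeat in its place. For 14 of the 18 both aged libraries lay below both young ones, against 26.7% of all members. Sox4, a transcription factor of early T cell development, had 74.7 and 99.03 in aged and 589 and 550 in young libraries (−2.71, SE 0.26, adjusted p = 0.00043). Rag1, a recombinase subunit that rearranges receptor genes, had 64.7 and 176 in aged and 526 and 941 in young libraries (−2.71, SE 0.38, adjusted p = 0.0047). Its partner Rag2 had no read in aged libraries and 24.6 and 32.03 in young ones, and was at least 10.5-fold lower in aged cells. The values show a wide spread within each age, with aged replicate 2 and young replicate 2 the higher of their pairs for Rag1.

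Dntt, the terminal transferase, repeated that order, with 17.4 and 40.8 in aged and 124 and 256 in young libraries. Cd8a had 22.4 and 46.6 in aged and 136 and 203 in young libraries, Ccr9, a thymic homing receptor, 9.12 and 31.1 in aged and 76.1 and 128 in young libraries, and Ctsl, a protease of thymic antigen presentation, 48.9 and 79.6 in aged and 171 and 217 in young libraries. Myb, a transcription factor of immature lymphocytes, was far more abundant and fell to 1097 and 818 in aged libraries, against 2217 and 1942 in young libraries. Tcf7, an early T lineage factor that mature cells also express, did not pass, with 5201 and 7639 in aged and 5538 and 6438 in young libraries. Cd8b1 and Cd4, the other coreceptor chains of immature thymocytes, were lower in both aged libraries without passing. The list summed to 10508 and 13715 in aged and 15739 and 18802 in young libraries, and Krt8 and other epithelial RNA was highest in young replicate 2; the part of carried-over thymocytes or epithelium in these genes was not tested.

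Histone genes made up the largest block of falls. Most histone proteins are made from replication-dependent genes that are transcribed in S phase into mRNA without a poly(A) tail, and the library kit used captures such RNA. Of 64 listed replication-dependent histone genes, 52 were members, and 26 of these were called lower and 0 higher. For 50 of the 52 both aged libraries lay below both young ones, against 26.7% of all members. The median log2 fold change was −2.16 and ranged from −2.27 to −1.78 over the alternatives. Their normalized counts summed to 12389 and 11968 in aged libraries and to 27378 and 23210 in young libraries. In the fit on the 4 iNKT17 libraries 39 of the 52 were called lower and 0 higher. Many of these genes are near-identical, and reads of low mapping quality were dropped, so single genes are less certain than the block.

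The fall was seen in each family, with medians of −2.35 for 5 H1, −2.19 for 12 H2A, −2.65 for 13 H2B, −2.53 for 10 H3 and −1.28 for 12 H4 genes. Hist1h1b, a linker histone, had 19.1 and 34.95 in aged and 418 and 391 in young libraries (−3.92, SE 0.39, adjusted p = 0.00049). Hist1h2af had 24.9 and 21.4 in aged and 214 and 217 in young libraries (−3.17, SE 0.26, adjusted p = 0.00019), and Hist1h3c had 5.81 and 2.91 in aged and 81.5 and 101 in young libraries (−4.15, SE 0.40, adjusted p = 0.00047). All 3 calls were kept in all 28 alternatives. Hist1h1c, the most abundant member, moved far less, with 4047 and 3834 in aged and 7386 and 4939 in young libraries (−0.62, SE 0.28, adjusted p = 0.37), and so did Hist1h4d, with 913 and 696 in aged and 1524 and 1686 in young libraries (−1.01, SE 0.25, adjusted p = 0.080). The 9 replication-independent histone genes had a median of −0.58, with 1 called lower: H2afx, the variant phosphorylated at DNA breaks, had 211 and 189 in aged and 437 and 420 in young libraries.

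**Figure D3:**
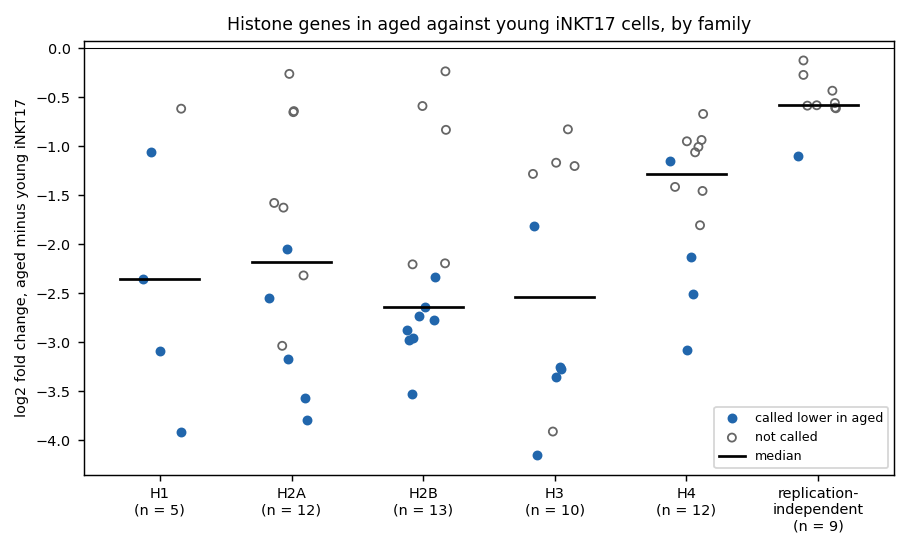
Log2 fold change of aged minus young iNKT17 cells for each measured histone gene, by protein family, with filled points for genes called lower in aged cells, open points for genes not called and a line at the median. All points lie below 0, and the 9 replication-independent genes (median −0.58) lie nearer to it than the families of replication-dependent genes (medians −2.65 to −1.28).

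The bases before the start of 4 histone genes on chromosome 13 are shown because they differ in the size of their change, with 3 that had the strongest calls of their families and Hist1h1c as the member that changed least among H1 genes. Each sequence gives the 250 bases before the RefSeq start in GRCm38.p6 (the assembly of mm10), 5′ to 3′ on the strand of the gene, and capitals mark CCAAT or TATAAA on either strand. Hist1h1b (RefSeq H1f5) spans chr13:21780626-21780875 on the minus strand, Hist1h2af (H2ac10) chr13:23533625-23533874 on the plus strand, Hist1h3c (H3c3) chr13:23745522-23745771 on the minus strand and Hist1h1c (H1f2) chr13:23738557-23738806 on the plus strand.
Hist1h1b: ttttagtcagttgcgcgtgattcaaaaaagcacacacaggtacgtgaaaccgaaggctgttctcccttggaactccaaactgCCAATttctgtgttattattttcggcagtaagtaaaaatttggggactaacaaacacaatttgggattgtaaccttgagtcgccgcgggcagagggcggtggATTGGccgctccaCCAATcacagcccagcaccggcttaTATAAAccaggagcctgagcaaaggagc
Hist1h2af: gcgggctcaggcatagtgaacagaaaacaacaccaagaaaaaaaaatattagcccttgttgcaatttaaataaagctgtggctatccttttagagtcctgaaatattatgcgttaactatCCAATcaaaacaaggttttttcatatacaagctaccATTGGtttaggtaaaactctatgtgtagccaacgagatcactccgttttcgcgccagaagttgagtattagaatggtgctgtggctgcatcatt
Hist1h3c: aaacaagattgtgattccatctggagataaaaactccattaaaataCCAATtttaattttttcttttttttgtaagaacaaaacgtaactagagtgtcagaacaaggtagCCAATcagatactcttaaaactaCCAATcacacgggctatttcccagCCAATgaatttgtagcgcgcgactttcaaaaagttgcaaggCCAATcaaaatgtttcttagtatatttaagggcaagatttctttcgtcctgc
Hist1h1c: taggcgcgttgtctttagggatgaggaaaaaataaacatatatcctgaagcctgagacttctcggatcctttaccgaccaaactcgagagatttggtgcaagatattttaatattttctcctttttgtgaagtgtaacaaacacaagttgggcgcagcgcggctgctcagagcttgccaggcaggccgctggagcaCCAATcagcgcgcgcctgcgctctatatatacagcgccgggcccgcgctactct
These windows held CCAAT 3, 2, 5 and 1 times in that order, and TATAAA once, in Hist1h1b only.

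Over the RefSeq windows of 300 bases (250 before to 50 after the start), CCAAT was found on either strand in 84.0% of the 25 matched histone genes called lower, in 81.8% of the 22 matched replication-dependent histone genes not called and in 39.4% of the 8455 matched members. TATAAA was found in 64.0% and 54.5% of these histone sets and in 6.55% of the members, and TTTGAA in 52.0% and 40.9% of the histone sets and 11.7% of the members. These letters were thus found more often in both histone sets than over the members, whether or not the histone genes were called. TTGGCGC or TTCCCGC, as in sites of E2F factors, was in 3 of the 25 histone genes called lower and 13.1% of the members. TTGGCGC can overlap the reverse of CCAAT. Among the 43 matched genes called higher, CCAAT was found in 25.6% and TTGGCGC or TTCCCGC in 13.95%.

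A part of the other cell cycle genes also fell. Of 35 measured genes of G2 and mitosis, 7 were called lower and 0 higher, 21 and 0 were at an unadjusted p under 0.05, and the median log2 fold change was −2.11 (−1.26 with a pseudocount of 5). Ccnb2, a mitotic cyclin, had 2.49 and 1.94 in aged and 51.5 and 84.6 in young libraries (−4.39, SE 0.51, adjusted p = 0.0014). Its partner kinase Cdk1 had 4.15 and 0.971 in aged and 40.7 and 38.1 in young libraries. Stmn1, which destabilises microtubules, had 38.99 and 35.9 in aged and 285 and 248.6 in young libraries (−2.80, SE 0.25, adjusted p = 0.00032). Birc5, Bub1b and Nusap1, all of the mitotic spindle, had log2 fold changes of −3.19, −3.17 and −3.03. The repeat library was higher than both aged libraries for some of these, with 127 for Stmn1, 37.0 for Bub1b and 11.9 for Ccnb2, and below both young ones. With it in place of aged replicate 2 the calls of Bub1b and Birc5 were lost, and those of Ccnb2 and Stmn1 were kept.

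Of 39 measured genes of S phase and DNA replication, 5 were called lower and 0 higher, with a median of −0.60. For 29 both aged libraries lay below both young ones (26.7% of all members), and for 3 they lay above (29.0% of all members). Ccne1, the cyclin of S phase entry, had no read in aged libraries and 19.2 and 12.2 in young ones, but 9.25 in the DNase-treated repeat, and its call was lost with that library in place of aged replicate 2. Ccne2 rested on 3 reads in aged cells (9.70-fold lower, exact 95% interval 3.05 to 49.4). Its call was lost in 18 of 28 alternatives, edgeR and the fit on the 4 iNKT17 libraries among them. Tyms, the thymidylate synthase, had 4.98 and 14.6 in aged and 54.6 and 51.1 in young libraries. Cdc6, a licensing factor, had 6.64 and 7.77 in aged and 53.0 and 53.4 in young libraries, but 34.4 in the repeat. Its call was lost in 11 of 28 alternatives, among them those that use the repeat. Mki67, the usual marker of cycling cells, had 25.7 and 33.0 in aged and 37.7 and 38.9 in young libraries (adjusted p = 0.70), and Slbp, which binds the stem-loop of histone mRNA, 358 and 385 in aged and 379 and 323 in young libraries; neither passed.

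Several homing receptors fell, while the median of their list was 0.02. Of 26 measured genes, 4 were called lower and 1 higher (Cd44), against 6 lower and 6 higher in the fit on the 4 iNKT17 libraries. S1pr1, the receptor by which T cells leave the thymus, had 9.95 and 4.85 in aged and 68.4 and 57.2 in young libraries (−2.99, SE 0.40, adjusted p = 0.0040). Ccr8 rested on 1 read, with 0.830 and 0 in aged and 42.3 and 10.7 in young libraries (59.0-fold lower, exact 95% interval 10.3 to 2365), and Ccr9 was given above. Cxcr6, a chemokine receptor of tissue-resident cells, had 5201 and 4996 in aged and 3722 and 3519 in young libraries, above in both, and did not pass (adjusted p = 0.27). Klf2, a factor that drives S1pr1, had a log2 fold change of 0.03.

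Of 16 inhibitory and costimulatory receptors, 4 were called lower and 0 higher: Cd27 (125 and 111 in aged, 246 and 342 in young libraries), Btla (68.0 and 48.5 in aged, 157 and 127 in young libraries), Tnfrsf9 (9.12 and 10.7 in aged, 29.2 and 45.0 in young libraries) and Icos. The call of Tnfrsf9, which encodes 4-1BB, was lost in 16 of 28 alternatives. Of the 27 genes of SLAM receptors and T cell receptor signalling, 2 were called lower and 1 higher (Plcg1). Themis, a regulator of T cell receptor signals in thymocyte selection, had 22.4 and 30.1 in aged and 117 and 154 in young libraries (−2.32, SE 0.25, adjusted p = 0.00075), and Slamf6 was the other. The kinase gene Zap70 had 3191 and 2912 in aged and 2859 and 3006 in young libraries.

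Il21 was the only call among 10 measured cytokines. It had no read in aged libraries or the repeat and 23.8 and 41.2 in young libraries, and was at least 12.04-fold lower in aged cells (adjusted p = 0.0054). Ptger4, the prostaglandin receptor EP4, had 145 and 118 in aged and 442 and 506 in young libraries (−1.85, SE 0.16, adjusted p = 0.00032). Chn2, a Rac GTPase-activating protein, had 80.5 and 93.2 in aged and 322 and 390 in young libraries (−2.02, SE 0.19, adjusted p = 0.00041). Trf (transferrin) had 18.3 and 51.5 in aged and 298 and 218 in young libraries, Flrt2 12.4 and 20.4 in aged and 189 and 165 in young libraries, and Cpq, a carboxypeptidase, 5.81 and 7.77 in aged and 69.9 and 60.2 in young libraries. The call was lost in 12 of 28 alternatives for Cpq and in 6 for Flrt2, and it was kept in all 28 for Trf, Ptger4 and Chn2.

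Polycomb repressive complex 2 methylates histone H3 at lysine 27 through Ezh2 or Ezh1. Of its 11 measured subunits, Ezh2 was called lower, with 87.9 and 85.4 in aged and 313 and 256 in young libraries (−1.70, SE 0.30, adjusted p = 0.015). The accessory subunit Phf1 was called higher, with 368 and 377 in aged and 117 and 138 in young libraries (1.54, SE 0.34, adjusted p = 0.049). Ezh1 had 786 and 764 in aged and 714 and 709 in young libraries, and the core subunit Eed 423 and 394 in aged and 406 and 400 in young libraries; neither passed.

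Ribosomal protein genes had small changes, few of which passed the test. Of 73 measured genes, 2 were called lower and 0 higher, but for 70 both aged libraries lay below both young ones, against 26.7% of all members, and the log2 fold changes had a median of −0.54 and a range of −1.22 to 0.05. Rpl28 had 1198 and 1440 in aged and 2154 and 2415 in young libraries, and Rpl10a 606 and 630 in aged and 1131 and 1281 in young libraries. Both calls are weak and were lost in 11 and 14 of 28 alternatives. In the fit on the 4 iNKT17 libraries 39 of the 73 were called lower. The 74 measured genes of oxidative phosphorylation had a median of −0.47, with 0 called in either direction by limma and 1 lower by edgeR, 26 lower and 0 higher at an unadjusted p under 0.05, and 61 with both aged libraries below both young ones. In the fit on the 4 libraries limma called 14 of the 74 lower and edgeR 16, and neither called one higher. Atp5e, an ATP synthase subunit, had 217 and 179 in aged and 400 and 385 in young libraries (adjusted p = 0.055).

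Both of these groups consist of short transcripts, and the change with age followed transcript length. With the 10116 members of known length divided into 5 equal groups from the shortest to the longest, the median log2 fold change was −0.09, −0.06, −0.01, 0.05 and 0.13. The genes called higher had a median length of 2142 nt and the genes called lower 1111 nt, against 1363 nt over all members. The part of transcript length in these results was not tested, though with a length trend removed in each library 56 members were called higher and 127 lower, with 51 of the 57 and 112 of the 116 calls shared. The calls of Rpl28 and Rpl10a were lost in that setting. The median of the ribosomal protein genes lay between −0.59 and −0.46 over all alternatives.

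Lists without a call in either direction over the 12 libraries included the interferon response (28 measured genes, median 0.04), immediate early and stress genes (25, median 0.31), Notch, WNT and TGF-β signalling (18, median 0.02), glycolysis (17, median −0.26), sterol and fatty acid synthesis (22, median −0.12) and small structural RNA genes (68, median −0.18). At an unadjusted p under 0.05, interferon genes had 2 higher and 0 lower, and stress genes 1 and 1. EdgeR called none in these 6 lists over the 12 libraries. In the limma fit on the 4 iNKT17 libraries each of them held calls, with 3 higher and 0 lower for interferon, 2 and 0 for stress, 2 and 3 for Notch, WNT and TGF-β, 1 and 3 for glycolysis, 3 and 2 for sterol and 1 and 3 for small RNA genes. The heat shock gene Hspa1b had 119 and 84.5 in aged and 15.4 and 24.4 in young libraries and its near-identical copy Hspa1a 41.5 and 18.5 in aged and 5.38 and 7.63 in young libraries, and the repeat had 34.4 and 5.29 for them, nearer to the young libraries.

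**Figure D4:**
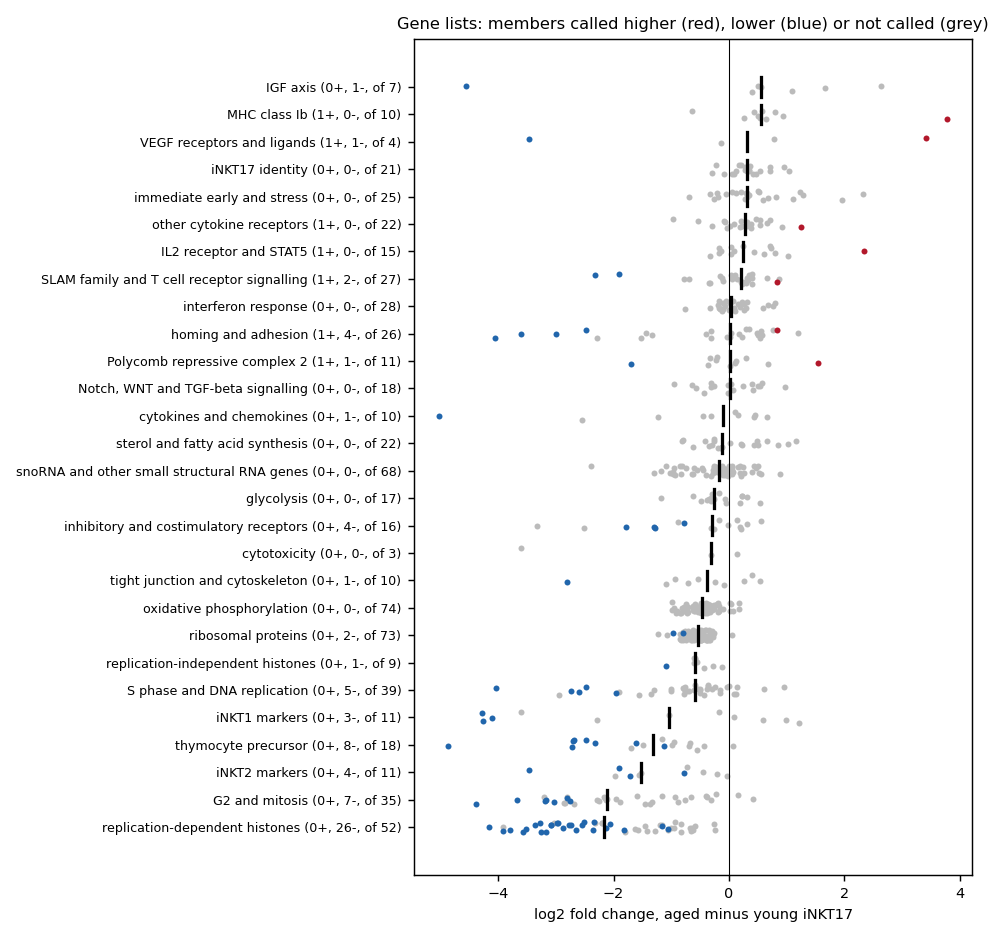
Log2 fold change of aged minus young iNKT17 cells for each measured member of 28 gene lists, with red points called higher, blue points called lower, grey points not called and a black bar at the median. Replication-dependent histones (median −2.16) and G2 and mitosis (median −2.11) lie farthest to the left, while the 21 iNKT17 identity genes lie between −0.29 and 1.05.

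The same age comparison was made in the other subsets. Of the 57 genes called higher in iNKT17 cells, 21 were also called higher in iNKT1 cells and 36 in the CD122- CD4+ sort, which holds iNKT2 cells in young mice and the mixed pool named iNKT2p in aged mice, and none was called lower in either. The paper reports that this aged sort was contaminated by iNKT17 cells, and their part in these rises was not tested. Of the 116 genes called lower, 61 were also lower in iNKT1 cells. In the CD122- CD4+ sort 19 were lower and 5 higher. The shares of all tested genes called in these other comparisons are not given here, so these counts show no excess of shared genes. The libraries differ between these comparisons, but the paper describes independent sorts that each gave all subsets from pooled thymi. Subsets of the same sort and age thus share mice. The labels do not say which libraries belong to a sort, and the fit treated the 12 libraries as independent.

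Tested as a difference of age changes, 18 of the 11530 genes differed between iNKT17 and iNKT1 cells (0.156%) and 14 between iNKT17 cells and the CD122- CD4+ sort (0.121%), of which 17 and 13 were members. Among genes called in iNKT17 cells, Chn2 and Ptger4 differed from both. Chn2 changed by −2.02 on the log2 scale in iNKT17 cells, by 0.44 in iNKT1 cells and by −0.28 in the CD122- CD4+ sort, and Ptger4 by −1.85, −0.23 and −0.02 in the same order. S1pr1 fell in iNKT17 cells and had 233 and 242 normalized counts in aged and 102 and 113 in young iNKT1 libraries (difference −4.13, SE 0.57, adjusted p = 0.018). Gimap3 rose by 2.22 in iNKT17 and had a change of 0.33 in iNKT1 cells, where its level was 3268 and 3472 in aged and 2643 and 2730 in young libraries.

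The 13 differences from the CD122- CD4+ sort all lay in the negative direction, and 12 of them were genes called lower in iNKT17 cells. The genes of immature thymocytes stand out here, since Rag1, Dntt, Cd8a and Ctsl were called lower in iNKT17 cells and higher in that sort. Rag1 had 3371 and 3424 normalized counts in aged and 873 and 1097 in young CD122- CD4+ libraries (difference −4.50, SE 0.53, adjusted p = 0.0063). Igfbp4 fell in both, with a log2 fold change of −4.56 in iNKT17 cells and −1.51 in the CD122- CD4+ sort (difference −3.05, SE 0.44, adjusted p = 0.020). Hist1h2af changed by −3.17 and −0.33 (difference −2.83, SE 0.36, adjusted p = 0.0083). Fam3c, named after its values were seen, had 343 and 398 in aged and 726 and 824 in young iNKT17 libraries. The 13th gene was Il23r, not called in iNKT17 cells. In the CD122- CD4+ sort it had 480 and 607 in aged and 76.6 and 72.0 in young libraries. The part of contaminating iNKT17 cells in that rise was not tested. Without 1 of the 2 aged libraries of that sort, 2 or 0 of these 13 differences were called.

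**Figure D5:**
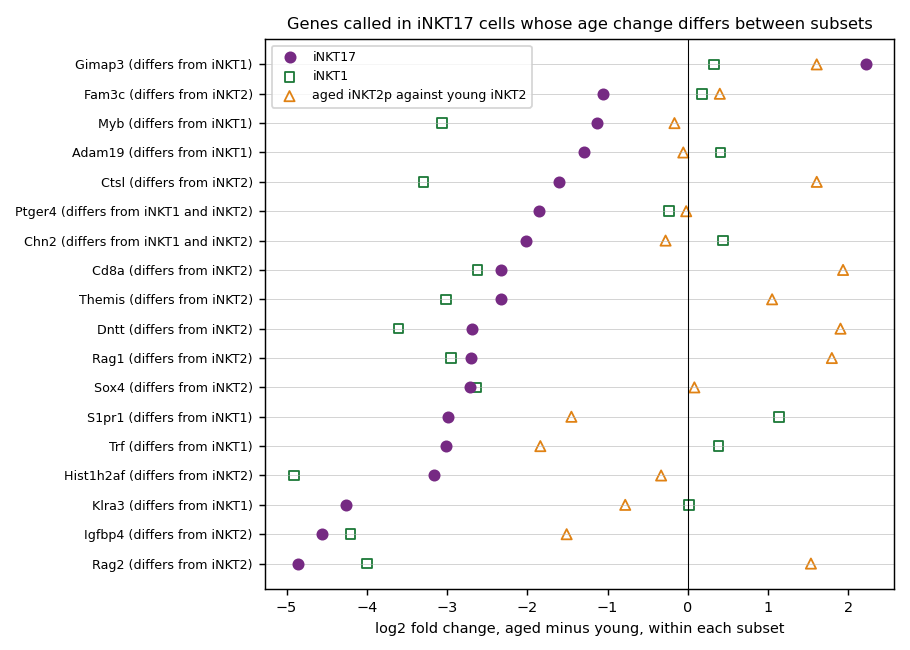
Log2 fold change of aged minus young cells in iNKT17 (filled circles), iNKT1 (squares) and the CD122- CD4+ sort (triangles) for the genes called in iNKT17 cells whose age change differed between subsets. For Rag1 iNKT17 and iNKT1 cells lie at −2.71 and −2.95, while the CD122- CD4+ sort lies at 1.79.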

How the data were processed

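RNA was measured in 13 libraries of sorted thymic iNKT cells, made with a stranded total RNA kit and counted by gene. The authors used Trim Galore (0.4.1) and Cutadapt (1.9.1) for trimming, FastQC (0.11.4) for quality and STAR (2.5.0c) for alignment to mm10, counted reads with featureCounts on the reverse strand at a mapping quality of at least 10, and divided the counts by DESeq2 size factors. The deposited table holds the resulting normalized counts as signal values, for 24421 genes. The deposited p-values are the authors' adjusted p-values of 9 pairwise comparisons and were not used. All signal values were whole multiples of the value of 1 read (100% within 0.01), so reads were recovered from them. There were 14 gene symbols that a spreadsheet had turned into dates, and all 14 were named again through their transcript accessions.

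Values were tested as log2(normalized count + 1) with limma (3.58.1, R 4.3.3), with 1 mean for each of 6 groups, a variance trend and 12 libraries. The log2 scale with a pseudocount understates the change of low genes. The fit took the 11530 genes for which 2 or more of these libraries reached 10, with p-values adjusted by Benjamini-Hochberg over all of them and calls made below an adjusted p of 0.05. The DNase-treated library, a repeat of the RNA of aged iNKT17 replicate 2, was used as a technical check only. It held 4844045 reads in genes. For 87.7% of members it lay within 2-fold of aged replicate 2, against 92.5% between the 2 aged replicates, so its value for a single gene is a weak check. EdgeR (4.0.16) and DESeq2 (1.42.0) were run on the recovered reads. In all 28 alternatives were run, 24 of them planned, the other 4 chosen after seeing the data. Scripts were tested on simulated data. Transcript lengths are medians per gene from a GENCODE annotation, and promoter windows and newer histone symbols come from RefSeq (GRCm38.p6).

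Genes named are those the study names for these cells, the 15 largest rises and falls with a group mean of at least 50 and no overlap, the 6 smallest p in each direction, the largest changes in each list, and genes whose change differs between subsets; exceptions are marked. The members and gene lists were chosen with earlier results of these data known. For the RNA, the labels give an RNeasy Plus Mini and the methods a Micro kit. The labels give no sort number for a library. Some genes that these rules name are not reported here.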

Additional observations from a re-analysis of the deposited data

Results flagged for a closer look

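These results are listed because the age change of a gene called in iNKT17 cells differed from that of another subset by a test of the difference (limma, adjusted p under 0.05). The values are the log2 change in iNKT17 cells minus that in the other subset, and no cause was tested.

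Against iNKT1 cells the difference was −4.27 for Klra3, −4.13 for S1pr1, −3.39 for Trf, −2.46 for Chn2, −1.70 for Adam19 and −1.62 for Ptger4, where iNKT17 cells fell and iNKT1 cells had changes between −0.23 and 1.14. Klra3 and Trf were abundant in iNKT1 cells at both ages, Klra3 with 1785 and 2117 in aged and 1900 and 1956 in young libraries and Trf with 1269 and 1166 in aged and 1148 and 757 in young libraries. The other differences were positive, 1.93 for Myb, which fell by 1.13 in iNKT17 and by 3.06 in iNKT1 cells, and 1.89 for Gimap3.

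Against the CD122- CD4+ sort the difference was −6.40 for Rag2, −4.59 for Dntt, −4.50 for Rag1, −4.26 for Cd8a, −3.38 for Themis, −3.22 for Ctsl, −3.05 for Igfbp4, −2.83 for Hist1h2af, −2.79 for Sox4, −1.83 for Ptger4 and −1.74 for Chn2. For Rag1, Dntt, Cd8a, Themis and Ctsl that sort was called higher in aged mice, with Themis at 889 and 1182 in aged and 541 and 452 in young libraries. The aged sort is the mixed pool iNKT2p from 73800 and 74600 cells. Its part in these differences was not tested.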

How the results depend on the processing

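No alternative turned the direction of a named gene, and 20 of 76 named calls were kept in every one. Another 20 were lost in 1 to 3 alternatives and 36 in 4 or more. Among the falls, the call was lost in 9 of 28 for Btla, 7 for Myb, 7 for Tyms and 5 for Ezh2, and kept in all 28 for Sox4, Slamf6 and Themis. The counts of calls varied more. The number called higher (57) was 35 without a filter, 33 without the variance trend, 191 with DESeq2, 673, 576 and 665 with limma, edgeR and DESeq2 on the 4 iNKT17 libraries, 563 without young iNKT1, iNKT2 and iNKT17 replicate 2, and 5 to 184 with 1 library left out. The number called lower (116) was 233 with DESeq2, 399, 432 and 455 on the 4 libraries, 239 without those 3 libraries, and 25 to 255 with 1 library left out. A group left with 1 library is assumed to vary like the others. Differences from iNKT1 cells (17) were 9 without a filter, 125 with DESeq2, 8 without those 3 libraries and 3 to 1029 with 1 library left out, the highest without young iNKT1 replicate 1. Differences from the CD122- CD4+ sort (13) were 24 with a pseudocount of 5, 35 without the trend, 39 with edgeR, 101 with DESeq2, 25 with the DNase-treated library in place of aged replicate 2, 21 with the length trend removed, 50 without those 3 libraries and 0 to 53 with 1 library left out. Apart from the spread given in the report, the cause was not tested. The medians of 6 of 28 lists changed sign in some alternative, all of them lists whose median lay between −0.18 and 0.04. No paired analysis was made, because the labels give the libraries no sort or replicate number. The replicate numbers used here follow the order of the libraries. Genes near the floor of 3 reads limit the comparison, and 2 libraries a group leave 6 residual degrees of freedom.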
